A study of Mus musculus with 3 samples.

Results

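The genes described here are 10 mouse genes of AP-1 and the immediate early response, namely the Fos family genes Fos, Fosb, Fosl1 and Fosl2, the Jun family genes Jun, Junb and Jund, and the genes Egr1, Ier2 and Ier3. They were taken by symbol from the 22068 genes listed in each of 3 RNA-Seq libraries, and all 10 were listed. The libraries came from C2C12 cells, a mouse myoblast line that forms myotubes when serum is lowered. The cells were stably infected with lentivirus carrying Linc-RAM (overexpression), a short hairpin RNA against Linc-RAM (knockdown) or an empty vector (control), were selected with blasticidin, were grown in 10% fetal bovine serum, and were harvested for polyadenylated RNA after 12 h in differentiation medium with 2% horse serum. In the study's methods the overexpression construct derives from a vector with a CMV promoter and EGFP, and the hairpin is driven by a U6 promoter. The sources used here do not state which backbone the control carried, or whether each line was a pool or a clone.

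AP-1 is a dimer of basic leucine zipper proteins. Jun proteins pair with each other or with Fos proteins, whereas Fos proteins need a Jun partner, so that the mixture of family members sets which dimers a cell can form. Immediate early genes such as Fos, Jun, Egr1 and Ier2 are transcribed within minutes of serum, growth factor or stress signals, without new protein synthesis, and most of their mRNAs are short-lived. In myoblasts, Jun and Fos are known for opposing differentiation, and Jun can bind MyoD.

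The library values are RPKM, which are reads scaled to the length of the gene and to the library's read total, so that genes of different length stand on 1 scale. The read totals behind them, recovered from the values, were 2105513 for overexpression, 1878146 for knockdown and 5130481 for the control. Linc-RAM itself (2310015B20Rik) was listed at 1.07 RPKM with overexpression and at 0 with knockdown and in the control, so it does not check the knockdown label. The low value with overexpression, for which no reads were recovered, is at most a weak check of that label. The paper reports RT-qPCR of Linc-RAM for both its knockdown and its overexpressing C2C12 cells. Each condition has 1 library, so no difference has a replicate check, no p-value is given, and the 95% intervals cover counting error only. For ratios they are exact (Clopper-Pearson). For the change of a within-library ratio between libraries they are exact conditional intervals of an odds ratio of reads. Overexpression and knockdown were set against the same control library. Myoblast identity was seen in all libraries, with 7 of 8 listed myoblast markers at a mean of at least 1 RPKM and Des, the muscle intermediate filament, at 386 RPKM with overexpression, 145 with knockdown and 291 in the control. The 8 markers summed to 612, 230 and 391 RPKM in the overexpression, knockdown and control libraries, and Msc was at 0 in the last 2. All 7 were above the control with overexpression. With knockdown 2 of 7 were, Itga7 at a ratio of 1.05 (0.853 to 1.29) and Chrna1 at 1.15 (0.989 to 1.32). Myog, the myogenin gene, had ratios of 5.60 (3.60 to 8.91) with overexpression and 0.911 (0.397 to 1.91) with knockdown. The part of these 7 markers in the results below was not tested. In such bulk RNA, fewer cells of a type and less RNA per cell cannot be told apart. Blood and endothelial markers were near absent, at summed levels of at most 2.00 and 0.248 RPKM in any library, with Ptprc, Emr1, Kdr, Vwf and Emcn at 0 in all 3. The fibroblast and tenocyte markers summed to 288, 123 and 113 RPKM with overexpression, knockdown and in the control, of which Ly6a made up 248, 82.3 and 78.9 RPKM. Scx was at 35.5, 33.3 and 29.3 RPKM in that order. Pdgfra was highest with knockdown, at 2.68, 6.56 and 3.39 RPKM, and Tnmd, Lum and Thy1 were at 0 throughout. The part of the fibroblast and tenocyte markers was likewise not tested.

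The results turn on the Jun family, so the sequence around the start of each of its 3 genes is shown. Each window runs from 250 bases before to 50 after the RefSeq gene start (build GRCm38.p6), 5′ to 3′ on the gene's strand, and capitals mark motif matches found on either strand. The searched motifs were TGANTCA (the AP-1 site), TGACATCA (a variant AP-1 site), TGACGT (core of the cAMP response element), CAGCTG (an E-box form that MyoD binds), TATAAA, GCGNGGGCG (the EGR site), GGGCGG (the SP1 box, not capitalised), the CArG box of SRF and the MEF2 site.
Jun, chr4:95052173-95052472, minus strand: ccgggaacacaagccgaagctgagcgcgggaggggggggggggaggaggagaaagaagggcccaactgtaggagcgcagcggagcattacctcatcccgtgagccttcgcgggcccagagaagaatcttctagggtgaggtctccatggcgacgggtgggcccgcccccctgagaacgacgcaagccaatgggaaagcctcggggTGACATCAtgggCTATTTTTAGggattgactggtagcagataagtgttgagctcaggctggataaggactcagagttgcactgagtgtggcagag
Jund, chr8:70697489-70697788, plus strand: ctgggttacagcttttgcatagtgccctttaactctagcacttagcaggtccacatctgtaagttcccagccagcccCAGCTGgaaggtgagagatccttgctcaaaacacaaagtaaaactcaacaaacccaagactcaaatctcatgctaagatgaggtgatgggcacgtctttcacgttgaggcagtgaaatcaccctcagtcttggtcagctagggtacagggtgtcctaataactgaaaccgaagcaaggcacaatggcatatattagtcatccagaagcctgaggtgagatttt
Junb, chr8:84978699-84978998, minus strand: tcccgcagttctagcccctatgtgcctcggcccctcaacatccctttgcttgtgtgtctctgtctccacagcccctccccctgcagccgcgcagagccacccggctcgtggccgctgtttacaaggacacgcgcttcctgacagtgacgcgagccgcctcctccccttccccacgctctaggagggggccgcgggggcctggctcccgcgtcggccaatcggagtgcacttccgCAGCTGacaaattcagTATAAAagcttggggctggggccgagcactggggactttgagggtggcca

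The Jun window held TGACATCA, starting at position -45 from the gene start, and a MEF2 site at -33. The Jund window held CAGCTG at -173, and the Junb window held CAGCTG at -16 and TATAAA at 1. Of 32851 RefSeq windows of this length, 3.62% held TGACATCA, 1.86% a MEF2 site, 16.3% CAGCTG and 13.6% TATAAA. No searched motif was in all 3 windows, and CAGCTG was in those of Jund and Junb. Annotated transcript lengths were 1848 and 3189 nt for Jun, 1559 and 2878 nt for Jund and 1807 nt for Junb, and the Jund values gave whole reads at 2878 nt. For Jun and Junb no annotated length did, and their reads came from searched lengths of 3187 and 1840 nt. Windows were at hand for 7 of the 10 members, all but Fosl1, Egr1 and Ier2. Among the other 4, Fos held TGACGT at -66, as do 7.51% of all windows, together with TATAAA and CAGCTG. Fosb and Fosl2 held GCGNGGGCG (5.55% of all windows), which overlapped GGGCGG in each, and Ier3 held CAGCTG. The SP1 box GGGCGG, in 35.7% of windows, was also in Fos, Jun and Ier3. None of the 7 windows held TGANTCA or a CArG box (7.81% and 1.63% of all windows). A match is a description of letters and not a site of binding.

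Of the Fos family, Fosl2, which encodes Fra-2, was the main member in all 3 libraries. Fosl2 (chromosome 5 of mm9, 32438845 to 32460204) was at 22.1 RPKM with overexpression and 15.4 RPKM with knockdown, against 19.2 RPKM in the control. These levels rested on 273, 170 and 579 reads, and Fosl2 made up 86.5%, 87.1% and 87.1% of the summed RPKM of the 4 Fos genes in that order. The Fosl2 level was the highest with overexpression and the lowest with knockdown. The ratio to the control was 1.15 with overexpression (95% interval 0.991 to 1.33), which included 1, and 0.802 with knockdown (0.672 to 0.953), which did not.

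The other 3 Fos genes were expressed at a low level. Fos (chromosome 12, 86814840 to 86818223), the classical serum-induced member, was at 1.36 RPKM with overexpression and 0.763 with knockdown, against 0.931 in the control, from 6, 3 and 10 reads. The intervals of its 2 ratios, 1.46 (0.437 to 4.44) with overexpression and 0.820 (0.145 to 3.18) with knockdown, included 1. Fosl1, which encodes Fra-1 (chromosome 19, 5447703 to 5455945), was at 1.95 RPKM with overexpression and 1.25 with knockdown, against 1.71 in the control, from 7, 4 and 15 reads, with ratios of 1.14 (0.392 to 2.96) and 0.728 (0.176 to 2.29). The annotation places Ccdc85b on the opposite strand across the end of Fosl1, and Ccdc85b was listed at 7.69, 5.83 and 11.0 RPKM with overexpression, knockdown and in the control. Fosb (chromosome 7, 19888070 to 19895394) had 1, 2 and 4 reads with overexpression, knockdown and in the control, which is 0.126, 0.282 and 0.206 RPKM. No difference of Fos, Fosb or Fosl1 from the control was detected in either line, and with so few reads their intervals leave room for more than 2-fold in either direction. Fosb had a mean below 1 RPKM and was left out of the counts over members, which therefore cover 9 genes.

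**Figure D1:**
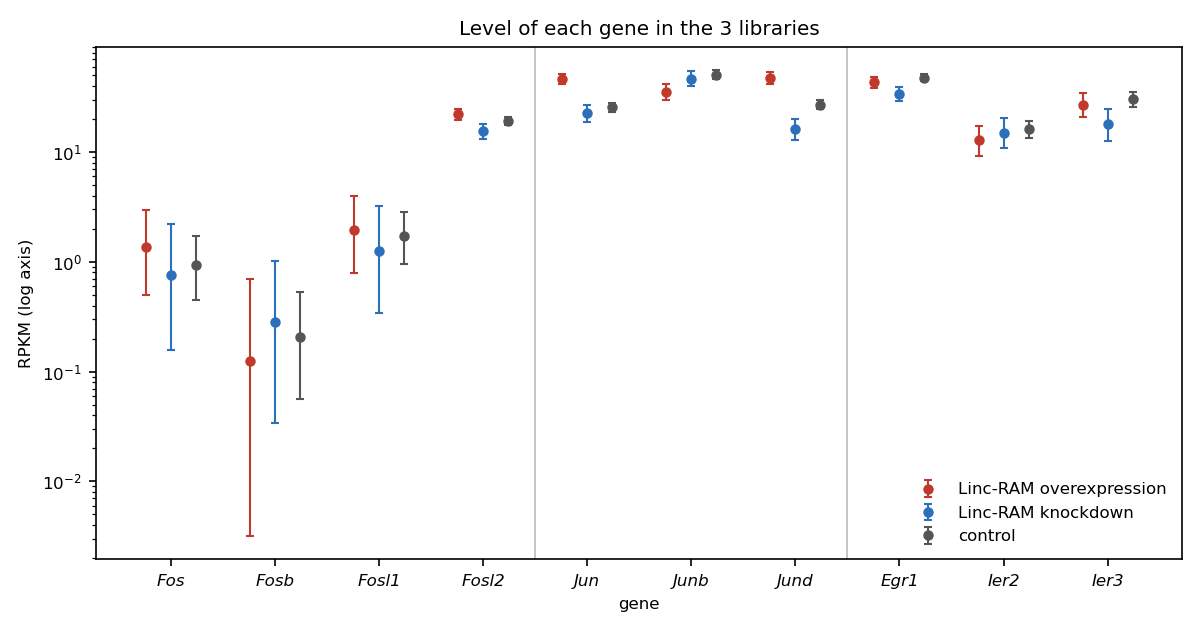
RPKM of the 10 genes (log axis) in the overexpression (red), knockdown (blue) and control (grey) libraries, with exact Poisson 95% intervals from the recovered reads as bars; vertical lines part the Fos family, the Jun family and the other genes. Jun and Jund sit highest with overexpression, at 46.3 and 47.5 RPKM, while Junb sits lowest there, at 35.4 RPKM, and Fos, Fosb and Fosl1 lie below 2 RPKM in every library.

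The Jun family differed in composition between the libraries. Jun (chromosome 4 of mm9, 94715725 to 94718913), the founding AP-1 subunit, was at 46.3 RPKM with overexpression (311 reads) and 22.6 RPKM with knockdown (135 reads), against 25.7 RPKM in the control (421 reads). The overexpression library stood apart and the knockdown library was close to the control. The ratio was 1.80 with overexpression (95% interval 1.55 to 2.09) and 0.876 with knockdown (0.716 to 1.07), which included 1. BC042782 lies on the opposite strand across the start of Jun, and the sources used here do not say whether reads were counted by strand.

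Jund (chromosome 8, 73221638 to 73224515), whose product is the Jun protein most often described as restraining growth, was at 47.5 RPKM with overexpression (288 reads) and 16.1 RPKM with knockdown (87 reads), against 27.2 RPKM in the control (401 reads). It was the only member with an interval above 1 in the overexpression library and below 1 in the knockdown library, with ratios of 1.75 (1.5 to 2.04) and 0.593 (0.465 to 0.749). Inside Jund the annotation places Gm11175 on the opposite strand. Of 5893 other genes with a mean of at least 5 RPKM, the 3 nearest to Jund in their log2 ratios over these 3 libraries were 2700062C07Rik (distance 0.0856), the lysosomal protease gene Ctsl (0.0877) and the complex I subunit gene Ndufs3 (0.105). Ctsl was at 101 RPKM with overexpression and 37.0 with knockdown, against 59.1 in the control. The likeness of the other 2 rested on few reads with overexpression, knockdown and in the control. These were 18, 5 and 24 for 2700062C07Rik and 22, 6 and 29 for Ndufs3. Their knockdown ratios had intervals that included 1 (0.170 to 1.52 and 0.192 to 1.39).

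Junb (chromosome 8, 87500811 to 87502617), a weaker activator than Jun that can dampen Jun activity, lay in the other direction. It was at 35.4 RPKM with overexpression (137 reads) and 46.9 RPKM with knockdown (162 reads), against 51.0 RPKM in the control (481 reads). The level was lowest with overexpression, with a ratio of 0.694 (0.570 to 0.841), and the ratio of 0.920 with knockdown (0.765 to 1.10) included 1.

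The 3 Jun genes summed to 129 RPKM with overexpression and 85.5 RPKM with knockdown, against 104 RPKM in the control, which is 1.24 and 0.823 of the control. The Fos genes summed to 25.6, 17.7 and 22.1 RPKM, so that the Jun family sum was 5.06, 4.82 and 4.70 times the Fos family sum with overexpression, knockdown and in the control. Junb made up 27.4% of the Jun family sum with overexpression, 54.8% with knockdown and 49.1% in the control. Jun made up 35.9%, 26.4% and 24.8%, and Jund 36.8%, 18.8% and 26.1%. Ratios of these genes within a library do not depend on how libraries are scaled, and the pairs below were picked after their values were seen. The ratio of Jun to Junb RPKM was 1.31 with overexpression (95% interval 1.07 to 1.61) and 0.481 with knockdown (0.380 to 0.608), against 0.505 in the control (0.442 to 0.577). With overexpression it was thus 2.59 times that of the control (2.03 to 3.32), and with knockdown 0.952 times (0.725 to 1.25). The ratio of Jund to Junb was 1.34 with overexpression, 0.343 with knockdown and 0.533 in the control, which is 2.52 (1.96 to 3.24) and 0.644 (0.475 to 0.871) times that of the control. The ratio of Jun to Jund was 0.975 with overexpression, 1.4 with knockdown and 0.948 in the control, so that it was 1.03 times that of the control with overexpression (0.828 to 1.28) and 1.48 times with knockdown (1.08 to 2.03).

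**Figure D2:**
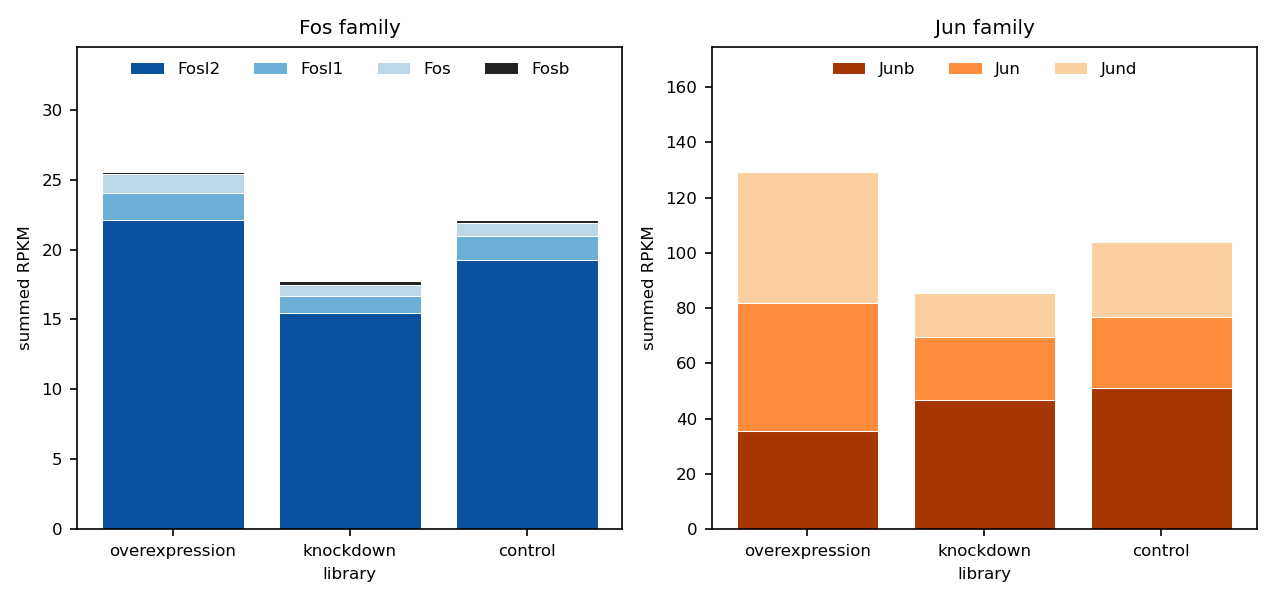
Summed RPKM of the Fos family (left) and the Jun family (right) in the overexpression, knockdown and control libraries, with 1 coloured segment for each gene and bars that start at 0. Fosl2 fills at least 86.5% of each Fos bar, and the Junb segment is 27.4% of the Jun bar with overexpression, against 54.8% with knockdown and 49.1% in the control.

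Egr1, Ier2 and Ier3 were not higher than the control in either line. Egr1 (chromosome 18, 35020861 to 35024638), a zinc finger factor that serum induces through SRF, was at 43.4 RPKM with overexpression (281 reads) and 34.0 RPKM with knockdown (196 reads), against 47.8 RPKM in the control (753 reads). Only the knockdown library lay beyond counting error, with a ratio of 0.711 (0.604 to 0.833), whereas that with overexpression was 0.909 (0.790 to 1.04). Gm17507 lies on the opposite strand across the end of Egr1. Ier3 (chromosome 17, 35958629 to 35959868), a stress-responsive gene that acts in cell survival, was at 27.0 RPKM with overexpression (62 reads) and 18.1 RPKM with knockdown (37 reads), against 30.2 RPKM in the control (169 reads). The ratio was 0.894 with overexpression (0.657 to 1.20) and 0.598 with knockdown (0.407 to 0.858). Ier2 (chromosome 8, 87185230 to 87186751), a nuclear immediate early protein gene, was at 12.8 RPKM with overexpression (41 reads) and 15.0 RPKM with knockdown (43 reads), against 16.3 RPKM in the control (127 reads). Both ratios, 0.787 with overexpression (0.539 to 1.13) and 0.925 with knockdown (0.639 to 1.32), had intervals that included 1.

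By level, Junb and Egr1 led the 10 genes in the control at 51.0 and 47.8 RPKM, and their ratio of 1.07 (0.949 to 1.20) was within counting error. With knockdown Junb led Egr1 by 1.38 times (1.11 to 1.71) and Egr1 led Jun by 1.51 times (1.20 to 1.89), and from Jun down to Ier2 no neighbours differed beyond counting error. With overexpression Jund, Jun and Egr1 led at 47.5, 46.3 and 43.4 RPKM, and no neighbours from Jund down to Fosl2 in that order differed beyond counting error. In the control the neighbours Egr1 and Ier3 (1.58 times, 1.34 to 1.88) and Jun and Fosl2 (1.34 times, 1.18 to 1.52) did differ. In all 3 libraries Ier2 was followed by Fosl1, Fos and Fosb, and the step from Ier2 to Fosl1 was 6.56 times with overexpression (2.91 to 17.3), 12 times with knockdown (4.38 to 46.2) and 9.48 times in the control (5.54 to 17.4).

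None of the 9 members with a mean of at least 1 RPKM was 2-fold from the control in either line. With overexpression 3.64% of the 10165 genes with a ratio lay 2-fold or more above the control and 3.47% as far below it, and with knockdown 3.38% and 4.19%. At a cutoff of 1.5-fold 2 members, Jun and Jund, were higher and 0 lower with overexpression, against 10.6% and 9.52% of all genes. With knockdown 0 were higher and 2, Jund and Ier3, lower at that cutoff, against 10.5% and 12.1%. With overexpression the interval lay above 1 for 2 of 9 members, Jun and Jund, and below 1 for 1, Junb, against 9.41% and 8.61% of all genes. With knockdown it lay above 1 for 0 and below 1 for 4, which were Fosl2, Jund, Egr1 and Ier3, against 9.00% and 10.4% of all genes. Well-read genes have narrower intervals, and 7 of the members had at least 100 control reads. Of the 4671 genes with that many, 26.2% had an interval that left out 1 with overexpression and 29.9% with knockdown, as did 3 and 4 of these 7 members. The median log2 ratio of the 9 members was 0.19 with overexpression, with 5 above the control, and -0.32 with knockdown, with 0 above it. The medians of all genes were 0.00 and -0.02. Over the 7 members with a mean of at least 5 RPKM the median was -0.14 with overexpression, so that its sign rests on the low-level genes Fos and Fosl1, and -0.32 with knockdown.

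Set directly against each other, without the control, the overexpression library exceeded the knockdown library for 7 of the 9 members. Jund, at 47.5 RPKM with overexpression against 16.1 RPKM with knockdown, differed by 2.95 times (95% interval 2.32 to 3.80). Jun, at 46.3 RPKM with overexpression against 22.6 RPKM with knockdown, differed by 2.05 times (1.67 to 2.53). These 2 passed 2-fold upward and 0 passed it downward, against 5.83% and 5.11% of 10146 genes. With RPKM scaled to 12 reference genes or to the upper quartile, 1 member, Jund, was at least 2-fold higher. At 1.5-fold 4 were higher (Fos, Fosl1, Jun and Jund) and 0 lower, against 14.3% and 12.6% of all genes. The interval lay above 1 for 4 members and below 1 for 1, against 9.67% and 8.19% of all genes. The 4 were Jun, Jund, Fosl2 at 1.43 (1.18 to 1.75) and Egr1 at 1.28 (1.06 to 1.54), and the 1 below was Junb at 0.754 (0.596 to 0.953). Scaled to the reference genes, 3 lay above 1, without Egr1. Of the 4671 well-read genes 26.3% had an interval that left out 1 in this comparison (14.5% above and 11.8% below), as did 5 of the 7 members among them. The ratio of Ier3 was 1.49 (0.979 to 2.31) and that of Ier2 0.851 (0.541 to 1.34). The median log2 ratio of the members was 0.58, against 0.02 for all genes.

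**Figure D3:**
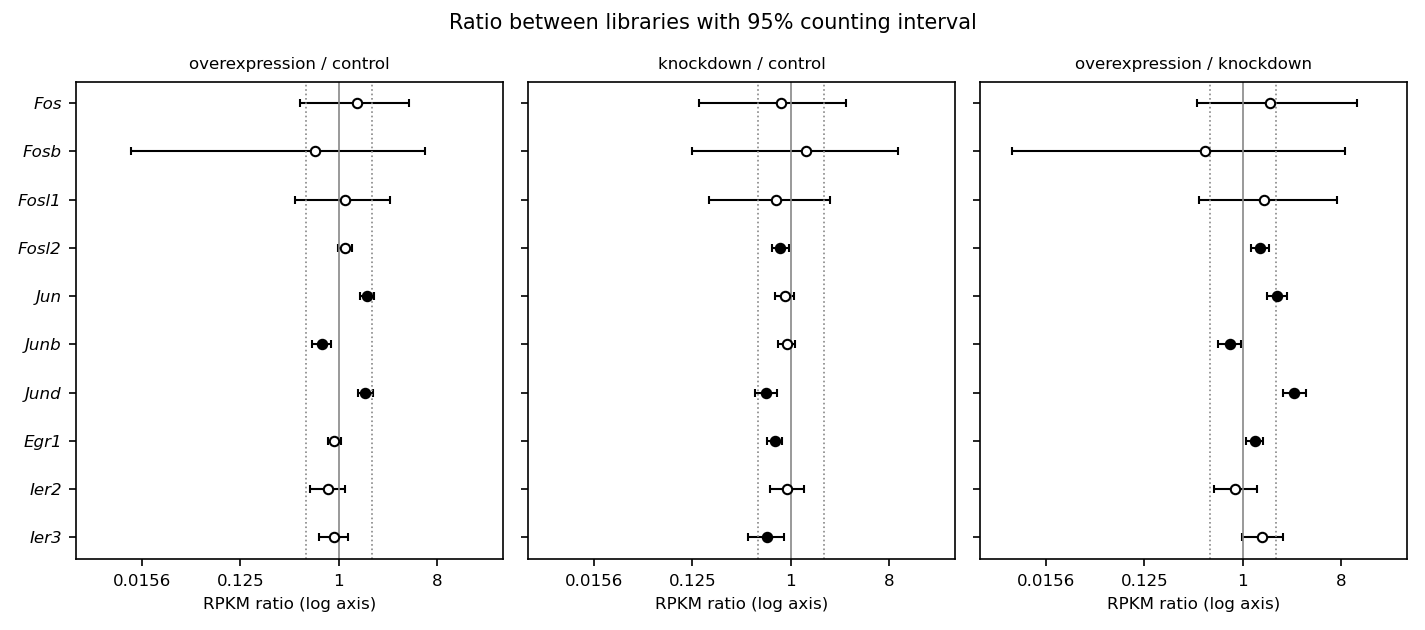
RPKM ratio of the 10 genes (log axis) for overexpression over control, knockdown over control and overexpression over knockdown, with exact 95% intervals for counting error, where filled points have intervals that leave out 1, the solid line marks 1 and dotted lines mark 2-fold. Jun and Jund lie beyond 2-fold only in the right panel, at 2.05 and 2.95, and the intervals of Fos, Fosb and Fosl1 span 1 in every panel.

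The other genes of the pathway were taken from lists written from known functions. These lists, like the members, were chosen with earlier results of these data known, so counts over them are descriptions and not tests. Some lists share genes, such as Dusp1 and Hmox1, so counts of different lists are not independent. Their counts can be read against the shares of all genes given above, which for intervals above and below 1 were 9.41% and 8.61% with overexpression and 9.00% and 10.4% with knockdown. Among well-read genes those shares were 11.4% and 14.8% with overexpression and 11.4% and 18.5% with knockdown. Other basic leucine zipper factors, which can pair with or compete with AP-1, gave 17 genes to compare of 25 listed. With overexpression 0 reached 2-fold above the control and 1 reached 2-fold below it, and with knockdown 0 were higher and 2 lower, with median log2 ratios of 0.03 and 0.04. Intervals lay above 1 for 2 and below 1 for 3 of the 17 with overexpression, and above 1 for 1 and below 1 for 5 with knockdown. Atf5, a stress-responsive factor, was lower in both lines, at 17.2 RPKM with overexpression and 15.2 with knockdown, against 44.9 in the control, ratios of 0.382 (0.294 to 0.491) and 0.339 (0.253 to 0.447). Atf7 was the other lower gene with knockdown, at 0.420 (0.107 to 1.21). Of the C/EBP genes, Cebpd had ratios of 1.87 with overexpression (1.17 to 2.94) and 1.05 with knockdown (0.572 to 1.84), and Cebpb of 0.783 (0.578 to 1.05) and 0.665 (0.473 to 0.919). Maff, a small Maf protein gene, stood at 1.22 (0.765 to 1.90) and 0.661 (0.349 to 1.18). Batf and Batf3 were listed at 0 in all 3 libraries.

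Of 33 other immediate early genes, 30 could be compared. With overexpression Klf4, Rhob, Hes1 and Dusp1 (4 genes) reached 2-fold above the control and Nr4a1 (1 gene) 2-fold below it, while with knockdown 0 lay that far above and 3 below, Egr2, Ctgf and Gadd45g. Their intervals lay above 1 for 10 and below 1 for 4 genes with overexpression, and above 1 for 0 and below 1 for 8 with knockdown, where all genes gave 9.41%, 8.61%, 9.00% and 10.4%. The median log2 ratios were 0.21 and -0.03. Klf4, a factor of growth arrest, was at 21.5 RPKM with overexpression and 5.60 with knockdown, against 4.67 in the control, ratios of 4.61 (3.44 to 6.20) and 1.20 (0.765 to 1.84). Ctgf, a matricellular growth factor gene, was at 39.9 and 4.65 RPKM, against 21.7 in the control, and so lay on opposite sides of it, at 1.84 (1.52 to 2.21) and 0.214 (0.130 to 0.334). Egr2, the paralog of Egr1, was lower in both lines, at 6.09 and 3.23 RPKM against 10.2 in the control, ratios of 0.597 (0.407 to 0.856) and 0.317 (0.183 to 0.518). The orphan receptor gene Nr4a1 had 2 reads with overexpression and 13 with knockdown, against 28 in the control, ratios of 0.174 (0.0201 to 0.690) and 1.27 (0.603 to 2.53).

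Of the genes that act upstream of the immediate early genes, SRF, its partners and the ETS factors Ets1 and Ets2 gave 9 genes. Of these 0 were 2-fold from the control in either line, with median log2 ratios of -0.26 with overexpression and -0.08 with knockdown. The interval lay above 1 for 1 and below 1 for 2 of them with overexpression (9.41% and 8.61% of all genes), and above 1 for 1 and below 1 for 1 with knockdown (9.00% and 10.4%). Elk1, a ternary complex factor, stood at 0.791 (0.534 to 1.15) and 0.560 (0.345 to 0.875), the ETS factor gene Ets1 at 0.764 (0.573 to 1.01) and 1.55 (1.23 to 1.94), Ets2 at 0.771 (0.677 to 0.877) and 0.945 (0.833 to 1.07), and the SRF coactivator gene Mkl1 at 0.750 (0.620 to 0.903) and 0.943 (0.786 to 1.13). MAP kinases and the signalling genes above them gave 23 genes of 29 listed, of which 0 were at least 2-fold higher and 1 lower with overexpression, Mapk12 at 0.300 (0.124 to 0.627), and 0 were 2-fold from the control with knockdown. Intervals lay above 1 for 1 and below 1 for 2 of the 23 with overexpression, and above 1 for 0 and below 1 for 3 with knockdown. Their medians were 0.04 and -0.01. Mapkapk2, a kinase downstream of p38, stood at 0.847 (0.678 to 1.05) and 0.658 (0.508 to 0.843), Mapk7 at 0.919 (0.705 to 1.19) and 0.745 (0.550 to 0.995), and Rps6ka4 at 0.812 (0.573 to 1.13) and 0.740 (0.505 to 1.06).

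Feedback inhibitors of the same signals, such as the dual-specificity phosphatases that switch off MAP kinases, gave 16 genes of 18 listed. With overexpression 3 were at least 2-fold higher, Dusp1, Dusp8 and Dusp10, and 0 lower. With knockdown 0 were higher and 2 lower, Dusp5 and Spry4, whose intervals both included 1. Dusp10, a phosphatase of p38 and JNK, was at 24.3 RPKM with overexpression and 6.48 with knockdown, against 8.77 in the control, ratios of 2.78 (2.16 to 3.57) and 0.739 (0.487 to 1.09). Dusp1, itself an immediate early gene, was at 11.5 and 4.39 RPKM, against 4.22 in the control, ratios of 2.73 (1.76 to 4.24) and 1.04 (0.546 to 1.89). Dusp4 stood at 1.14 (0.832 to 1.54) and 0.538 (0.342 to 0.818), and Dusp7 at 0.546 (0.289 to 0.965) and 0.815 (0.469 to 1.36). Intervals lay above 1 for 7 and below 1 for 2 of the 16 with overexpression, against 9.41% and 8.61% of all genes, and above 1 for 1 and below 1 for 3 with knockdown, against 9.00% and 10.4%. The medians of the list were 0.20 and -0.24.

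Textbook targets of AP-1 and EGR1 lay on both sides of the control with overexpression. Of 33 listed, 27 could be compared, and with overexpression 3 were at least 2-fold higher, Plau, Cd44 and Dcn, and 6 lower, of which Lif, Pdgfb and Fgf2 had intervals that included 1. By interval 7 lay above 1 and 5 below, against 9.41% and 8.61% of all genes. With knockdown 0 were higher and 2 lower, Ccl2 and Pdgfb, while 2 of 27 lay above the control, and the interval lay above 1 for 0 and below 1 for 10, against 9.00% and 10.4% of all genes. The median log2 ratio was -0.13 with overexpression and 0.11 over the 18 genes with a mean of at least 5 RPKM, and with knockdown -0.55 and -0.46 over the same genes. The medians of all genes were 0.00 with overexpression and -0.02 with knockdown. Plau, the urokinase gene, was at 42.6 RPKM with overexpression and 12.5 with knockdown, against 15.9 in the control, ratios of 2.68 (2.19 to 3.28) and 0.787 (0.572 to 1.07). Cd44, the hyaluronan receptor gene, was at 67.1 and 24.5 RPKM, against 28.3 in the control, ratios of 2.37 (2.15 to 2.62) and 0.866 (0.750 to 0.997). The chemokine gene Ccl2 stood at 0.913 (0.712 to 1.16) and 0.283 (0.181 to 0.425), and F3, the tissue factor gene, at 0.336 (0.199 to 0.538) and 0.509 (0.324 to 0.771). Of the matrix metalloproteinase genes, Mmp3 and Mmp1a were listed at 0 in all 3 libraries.

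**Figure D4:**
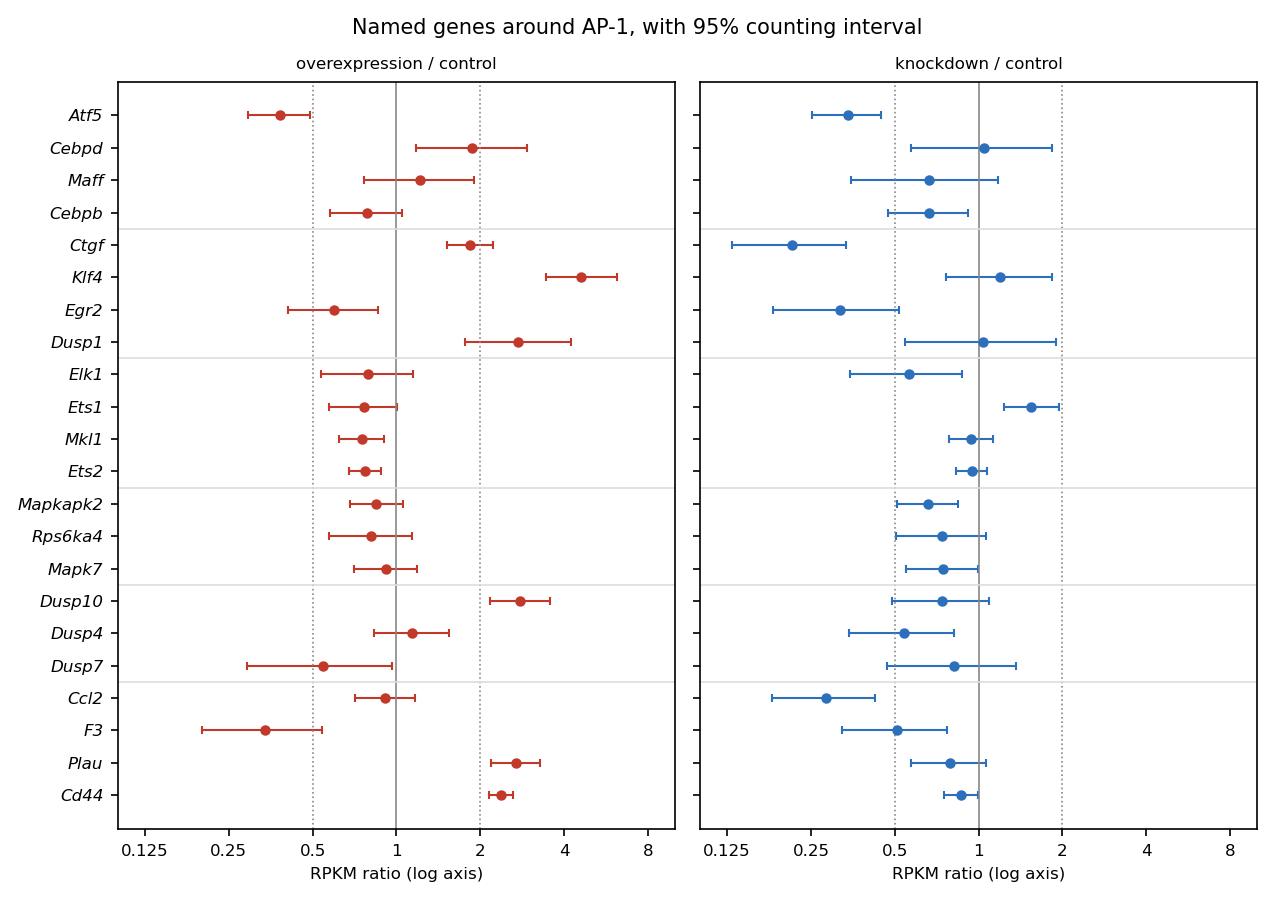
RPKM ratio to the control (log axis) with overexpression (left) and knockdown (right) for the named genes of the pathway lists, with exact 95% intervals for counting error as bars; the solid line marks 1, dotted lines mark 2-fold and grey lines part the lists. On the left Klf4, Dusp1, Dusp10, Plau and Cd44 lie above 2, at 2.37 to 4.61, and Atf5 and F3 lie below 0.5, at 0.382 and 0.336. On the right Ctgf, Egr2, Ccl2 and Atf5 lie below 0.5, at 0.214 to 0.339.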

How the data were processed

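Reads of 3 libraries, 1 per condition, were mapped to mm9 by the authors. The submitters' processing notes name TopHat 1.4.1, DEGSeq gave the coverage of genes, and the values were deposited as RPKM. The gene annotation, the use of strand and the handling of multi-mapped reads were not given in the sources used here. Members and gene lists were chosen with earlier results of these data known.

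Ratios were taken between deposited RPKM values without an added constant, for genes whose mean over the 3 libraries reached 1 RPKM. The call was a ratio of at least 2, the criterion in the study's methods, and the 1.5-fold cutoff given for its heatmap was an alternative. Each read total was taken as the smallest at which annotated GENCODE transcript lengths gave whole reads (within 1e-05 of the count) nearly as often as the best total did. Each gene's reads came from an annotated length, or else from the smallest length of at least 200 nt, whole in all 3 libraries. Recovered reads are thus if anything too few, and the intervals too wide for counting error. Variation between libraries is not covered by them. An annotated length served for 24.5% of the genes with reads. The totals gave whole reads for 40.9%, 41.2% and 38.9% of 1500 genes with few reads (overexpression, knockdown, control), against 17.6%, 16.7% and 15.8% with totals halved. Tested on simulated data, reads were exact for 94.1% of 1989 genes (overexpression over control).

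Named genes were all members, up to 4 genes per list with the largest ratio at a mean of at least 5 RPKM, the 3 genes nearest to the member farthest from the control, and genes in counts of 5 or fewer, which were chosen after their values were seen. A gene that the rule named is not reported here. Alternatives were added constants, other scalings, filters and thresholds. Positions are of GENCODE on mm9, and RefSeq windows are of GRCm38.p6. Tables were handled in pandas 2.3.3 and numpy 2.4.6 under Python 3.11.15, intervals came from scipy 1.17.1, and figures from matplotlib 3.10.9.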

Additional observations from a re-analysis of the deposited data

How the results depend on the processing

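At a 1.5-fold threshold 2 members were higher with overexpression and 2 lower with knockdown, against 0 at 2-fold, and 4 were higher with overexpression than with knockdown, against 2. Of all genes 10.6%, 12.1% and 14.3% passed 1.5-fold in these directions. In that direct comparison 1 member was higher with scaling to the reference genes or to the upper quartile, and with no filter 1 was lower, Fosb, from 1 read against 2. The reference genes stood at log2 0.14 with overexpression over control and 0.22 with overexpression over knockdown (0.03 with knockdown over control). With scaling to them, chosen for the intervals after seeing the data, 2 members, Junb and Egr1, had an interval below 1 with overexpression, against 1. The direct interval of Egr1 then included 1. Under added constants of 0.1 and 1 RPKM and the 3 scalings, all 135 member ratios stayed within their counting interval. Added constants cannot reverse a ratio, so direction was open to change only under the scalings, which shifted log2 ratios by at most 0.22. No ratio changed direction under the scalings. The median with overexpression was -0.14 at a mean of at least 5 RPKM, against 0.19, and all other medians kept their sign. Shares and ratios within a library do not depend on scaling. Depth limits Fos, Fosb and Fosl1, with at most 15 reads in any library. No paired analysis was possible because each condition has 1 library.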

Other observations

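Factors that bind AU-rich elements, which make many immediate early mRNAs short-lived, and of mRNA decay gave 14 genes of 15 listed, and 0 were 2-fold from the control in either line. Their median log2 ratios were 0.02 with overexpression and 0.18 with knockdown. The interval lay above 1 for 1 and below 1 for 2 with overexpression, against 9.41% and 8.61% of all genes. With knockdown it lay above 1 for 2 and below 1 for 1, against 9.00% and 10.4%. Zfp36l2, which promotes decay of such mRNAs, was at 36.7 RPKM with overexpression and 46.1 with knockdown, against 53.0 in the control, ratios of 0.692 (95% interval 0.603 to 0.793) and 0.870 (0.762 to 0.990). Pabpc1, the poly(A)-binding protein gene, stood at 1.13 (1.03 to 1.23) and 1.36 (1.25 to 1.48), Tia1 at 1.21 (0.911 to 1.60) and 1.48 (1.12 to 1.94), and Upf1 at 0.710 (0.496 to 0.999) and 0.778 (0.541 to 1.10).

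Of 14 heat shock and stress genes, 1 lay at least 2-fold above the control and 1 as far below it with overexpression. With knockdown these counts were 0 and 1, and the median log2 ratios were 0.37 and 0.05 with overexpression and knockdown. The interval lay above 1 for 8 and below 1 for 1 with overexpression, against 9.41% and 8.61% of all genes, and above 1 for 2 and below 1 for 5 with knockdown, against 9.00% and 10.4%. The part of these genes' signals in the values of the Jun genes was not tested. Hspb1, a small heat shock protein gene, was at 368 RPKM with overexpression and 91.4 with knockdown, against 119 in the control, ratios of 3.08 (2.76 to 3.45) and 0.766 (0.637 to 0.917). Hspa1a, an inducible HSP70 gene, stood at 1.4 (1.12 to 1.76) and 0.441 (0.299 to 0.632), and its near-identical copy Hspa1b at 1.48 (1.26 to 1.74) and 0.584 (0.458 to 0.738), so reads of the pair may be shared. Hmox1, the heme oxygenase gene, was lower in both lines, at 0.456 (0.278 to 0.715) and 0.555 (0.346 to 0.859), and Hspe1 stood at 1.83 (0.987 to 3.34) and 1.46 (0.726 to 2.83).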
